A study of Mus musculus with 17 samples.

Results

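The amino acid and one-carbon synthesis enzymes described here are 10 genes of the 20572 in the count tables. They were named as a list and looked up by symbol: Phgdh, Psat1 and Psph (serine synthesis), Shmt2, Mthfd2 and Aldh1l2 (mitochondrial folate metabolism), Asns (asparagine synthesis), Cth (cysteine synthesis), and Aldh18a1 and Pycr1 (proline synthesis). The list was chosen with earlier results of these data known. All 10 had enough counts to be tested both in RNA and in ribosome footprints. The series asked what Musashi-2 (Msi2), an RNA-binding protein, binds and changes in mouse keratinocytes, the main cells of the epidermis. The cells were a culture from newborn C57BL/6 mouse skin that became immortal spontaneously, kept on mitomycin-treated NIH-3T3 J2 feeder fibroblasts for its first 3 passages and on plain dishes afterwards. Lentivirus delivered either a scrambled short hairpin RNA (control) or one against Msi2 (knockdown), and both groups received puromycin at 2 ug/ml for 2 days. Each group gave 3 libraries of polyadenylated RNA and 3 libraries of ribosome footprints, the RNA pieces that ribosomes shield from nuclease, and the footprint cultures of both groups received cycloheximide before harvest. For Msi2 binding, the series has 5 HITS-CLIP libraries at RNase dilutions from 1 to 75, a method that crosslinks RNA to protein with UVC light (200 mJ/cm2 here) and recovers both with an antibody.

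The serine pathway starts from an intermediate of glycolysis, which Phgdh oxidises, Psat1 transaminates and Psph dephosphorylates to serine. Shmt2 splits serine into glycine and a carbon unit carried on folate, and Mthfd2 and Aldh1l2 oxidise that unit inside mitochondria, for use in purine synthesis and redox balance. Several of these genes are textbook targets of ATF4, a transcription factor made when amino acids are scarce or protein folding fails, and ATF4 and its partners bind the amino acid response element, whose core is written TGATGNAA.

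That core was searched on both strands of RefSeq promoters (GRCm38.p6, from 250 bases before the annotated start to 50 after it). Of the 10 enzymes, 8 had a promoter in the table and 2 of these 8, Asns and Pycr1, held a match, beside 1219 of all 27025 genes with a promoter (4.51%) and 1304 of all 32851 promoters (3.97%). The windows of 30 bases below are shown because they place the matched letters in the enzymes' own promoters and, for comparison, in Got1 (aspartate synthesis) and in Chac1 and Trib3, known targets of ATF4. Each is written 5′ to 3′ with the match in capitals.
Asns: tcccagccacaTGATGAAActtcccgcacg
Pycr1: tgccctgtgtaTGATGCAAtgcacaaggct
Got1: ggaggcttgtaTGATGCAAccaatgcaatg
Chac1: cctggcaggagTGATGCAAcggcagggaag
Trib3: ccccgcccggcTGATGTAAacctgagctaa
The Asns window is chr6:7693214-7693243, minus strand, with the match at positions -23 to -16 from the start. The Pycr1 window is chr11:120643833-120643862, minus strand, with the match at positions -103 to -96. Both matches lie on the strand of their gene. The other 3 windows lie on the strand opposite to their gene, at chr19:43524689-43524718 (plus strand) for Got1, chr2:119351038-119351067 (minus strand) for Chac1 and chr2:152344028-152344057 (plus strand) for Trib3. The core was in 4 of 15 promoters of ATF4 branch genes (Chac1, Trib3, Atf3 and Nupr1) and in 1 of 74 promoters of other genes of the metabolic lists described below. The windows of Atf3 and Nupr1 are not shown. In RNA, Nupr1 fell in knockdown (log2 fold change -2.72, adjusted p = 0.0127) and Atf3 was not called (0.10, adjusted p = 0.755). A match describes letters in this window and is not a measured site.

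Gene counts summed to between 9221566 and 26785876 per RNA library (median 15991910) and between 512256 and 2959625 per footprint library (median 1533734). Msi2 RNA, the target, stood at 6.51, 6.64 and 8.82 CPM (counts relative to the library's TMM-scaled total) in control libraries 1 to 3 and at 6.55, 6.41 and 5.11 in the libraries labelled knockdown. The groups overlapped (log2 fold change -0.29 with an SE of 0.21, adjusted p = 0.283), and Msi2 RNA was called lower only with the trend with gene span removed (-0.51, adjusted p = 0.0449), an alternative chosen after seeing the data. Msi2 footprints did not overlap: 17.1, 16.8 and 18.3 CPM in the controls and 4.53, 0 and 5.12 in the libraries labelled knockdown, where the 0 is the shallowest library (log2 fold change -2.08 ± 0.41, adjusted p = 0.000285). The difference between the footprint and RNA changes of Msi2, -1.79 ± 0.48, was not called (adjusted p = 0.117). It was called with no filter (adjusted p = 0.0218) and without RNA control 3 (0.0217). Below, knockdown means the libraries labelled with the Msi2 hairpin. Keratinocyte markers were abundant in every RNA library (summed 16370 to 20210 CPM in controls and 13370 to 15070 in knockdown). Of these 8 markers, 4 were called lower in RNA, Krt5 among them, and 3 higher (Itgb4, Itga6 and Col17a1). The summed fibroblast markers were 4.54 to 7.55 CPM in controls and 8.97 to 10.3 in knockdown. Of these 8, 5 were at 0 in all 6 RNA libraries, Col1a2 and Col3a1 among them. The 2 tested were Pdgfra, called higher in knockdown on 5 to 60 counts (1.18, adjusted p = 0.0258), and Twist2, not called (0.54, adjusted p = 0.0689). Melanocyte markers (2 of 6 at 0 throughout) summed to 1.71 to 2.31 and 2.08 to 3.77 CPM, endothelial markers (none of 5) to 1.38 to 2.57 and 3.53 to 5.20, and immune markers (2 of 6) to 16.1 to 18.6 and 8.60 to 13.6. Reads that aligned to several places made up 13.4 to 17.4% of a control RNA library and 19.8 to 24.5% of a knockdown one. The part of these differences in the results below was not tested. The labels do not state whether replicates were separate cultures, so the p-values reflect library-to-library spread, possibly only technical. In bulk RNA, fewer cells of a type and less RNA per cell cannot be told apart.

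In RNA, all 10 enzymes fell in the knockdown libraries, by 1.76-fold (Phgdh) to 7.91-fold (Aldh1l2). Their median log2 fold change was -1.45, beside 0.00 over all 11117 genes tested. Of all genes tested, 21.7% were called lower and 22.0% higher at an adjusted p under 0.05. Because the 10 were chosen with earlier results known, their contrast with all genes is a description and not a test. Every knockdown library lay below every control library for each of the 10, which was so for 26.2% of all genes. Summed over the 10, the RNA level was 3043 to 3609 CPM in controls and 1348 to 1525 CPM in knockdown.

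**Figure D1:**
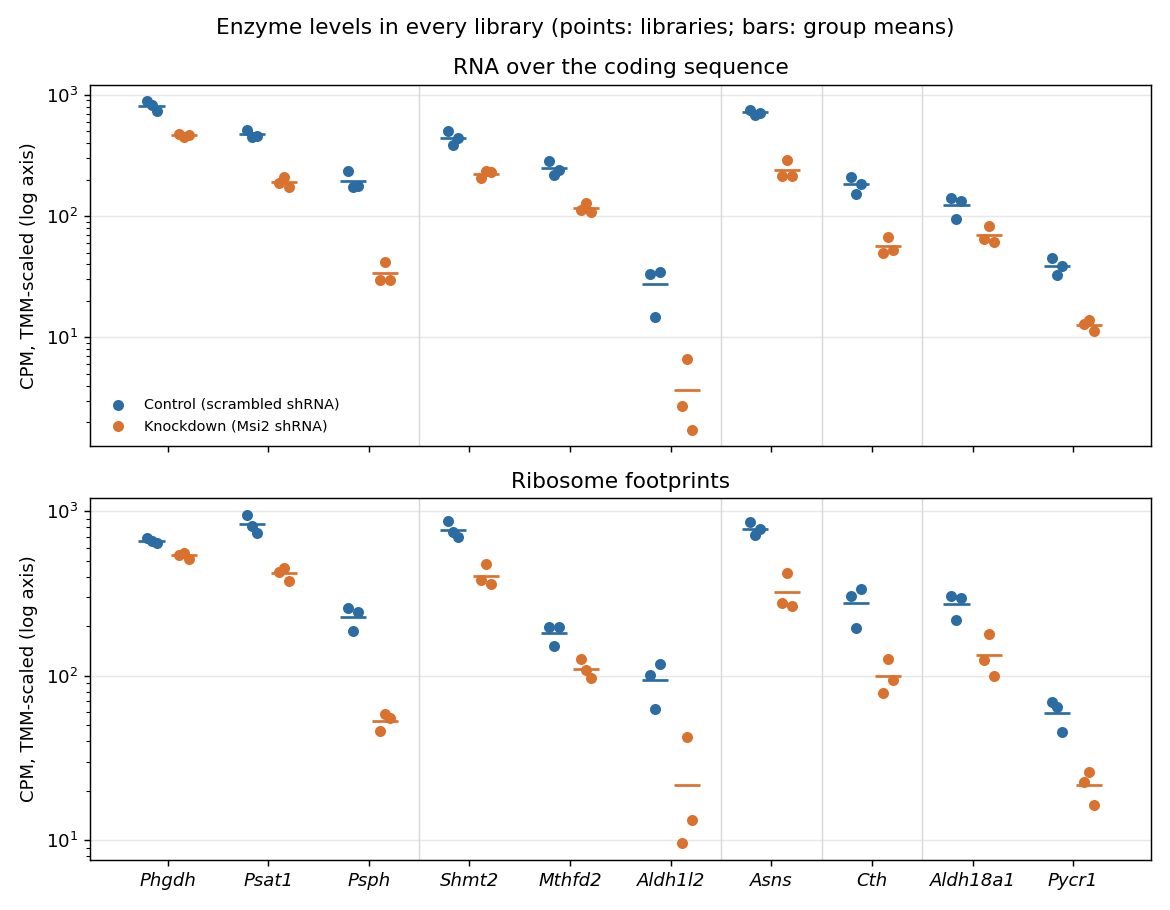
Level of each enzyme in every library (CPM with TMM factors, log axis) in RNA (top) and ribosome footprints (bottom); points are libraries and short bars are group means of 3. The knockdown points lie below the control points for all 10 genes in both panels, from a wide gap in Psph to a narrow one in Phgdh footprints; CPM is not corrected for gene length, so heights of different genes are not comparable.

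Among the serine enzymes, the RNA change was smaller in Phgdh, at the entry of the path, than in Psph, at its end. Phgdh, the entry enzyme, stood at 885, 831 and 734 CPM in the controls and 476, 451 and 464 in knockdown. It fell by 0.82 ± 0.12 on the log2 scale (adjusted p = 6.90e-05), and its SD among the 3 knockdown libraries was 12.5 CPM. Psat1, the transaminase, measured 516, 450 and 456 CPM in controls against 189, 210 and 175 in knockdown (-1.31 ± 0.12 on the log2 scale, adjusted p = 7.37e-07). The values for Psph, the phosphatase that releases serine, were 237, 174 and 179 CPM and then 29.6, 41.9 and 29.5 CPM. Psph fell 5.85-fold (log2 fold change -2.55 ± 0.16, adjusted p = 1.20e-08), and its lowest control library was 4.14 times its highest knockdown library. Ratios of counts within a library need no scaling between libraries. The Psph to Phgdh ratio was 0.268, 0.209 and 0.244 in controls and 0.0623, 0.0930 and 0.0636 in knockdown, without overlap (log2 difference -1.74). The Psat1 to Phgdh ratio went from 0.582 ± 0.0397 (SD, n = 3) to 0.413 ± 0.0468, and the Psph to Psat1 ratio from 0.412 ± 0.0413 to 0.175 ± 0.0220, also without overlap. Each of these 3 ratios gave an exact two-sided permutation p of 0.1, the smallest that 3 against 3 libraries allow, and 0.122 after adjustment over the 22 ratios computed here, a family chosen with the values known. Psph shares 88 bases of its span with Cct6a, and whether the counting used strand is not given in the sources used here.

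The 3 mitochondrial folate enzymes also fell. Shmt2, which makes glycine from serine, stood at 504, 388 and 440 CPM in controls and 205, 234 and 231 in knockdown (log2 fold change -0.99 ± 0.13, adjusted p = 1.75e-05). Mthfd2, the dehydrogenase next in the path, stood at 284, 218 and 242 CPM and then 112, 129 and 108 (-1.09 ± 0.13, adjusted p = 6.28e-06). The Mthfd2 to Shmt2 ratio was 0.564, 0.564 and 0.549 in controls and 0.546, 0.552 and 0.469 in knockdown, with overlap (log2 difference -0.10, exact permutation p = 0.2). Aldh1l2, which oxidises formyl-tetrahydrofolate in mitochondria, was the most variable of the 10. It measured 33.3, 14.8 and 34.7 CPM in controls and 2.70, 6.57 and 1.73 in knockdown, from counts of 26 to 649. Control 2 was far below the other controls in Aldh1l2 and knockdown 2 far above the other knockdown libraries, and the groups did not overlap. Its log2 fold change was -2.98 ± 0.62 (adjusted p = 0.0143). The call was lost without control 3 (adjusted p = 0.0560) or without knockdown 1 (adjusted p = 0.0582), and the log2 fold change was -3.73 without knockdown 2. A long noncoding RNA, Gm51778, covers 26390 bases of the Aldh1l2 span.

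Asns, which makes asparagine from aspartate and glutamine, measured 754, 688 and 712 CPM in controls and 215, 289 and 214 in knockdown. Its level in knockdown was 33.3% of control (log2 fold change -1.59 ± 0.14, adjusted p = 3.79e-07). Cth, which releases cysteine from cystathionine, stood at 211, 154 and 185 CPM in controls and 49.9, 66.7 and 52.6 in knockdown (-1.70 ± 0.14, adjusted p = 2.03e-07). Cbs, the enzyme that makes cystathionine, had 0 to 9 counts per RNA library and was not tested. In proline synthesis, Aldh18a1, which turns glutamate into the proline precursor, stood at 142, 94.2 and 134 CPM in controls and 64.1, 83.6 and 60.9 in knockdown. Aldh18a1 fell by 0.83 ± 0.15 (adjusted p = 0.000496), and control 2 was 1.13 times knockdown 2. Pycr1, the mitochondrial reductase that completes proline, stood at 45.1, 32.4 and 38.7 CPM and then 12.99, 14.0 and 11.2 (-1.61 ± 0.15, adjusted p = 8.50e-07). The Pycr1 to Aldh18a1 ratio went from 0.317 ± 0.0278 to 0.185 ± 0.0174 (SD, n = 3), without overlap (exact permutation p = 0.1). A pseudogene, Gm15801, lies within the Aldh18a1 span.

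In footprints, the estimates of all 10 enzymes were below 0 and 9 of the 10 were called lower. Their median log2 fold change was -1.19, beside -0.01 over all 8969 genes tested. Of all genes 7.38% were called lower and 8.76% higher. All 3 knockdown libraries lay below every control library for each of the 10, as for 15.4% of all genes. Summed over the 10, footprints were 3809 to 4601 CPM in controls and 1893 to 2447 in knockdown. The exception to the calls was Phgdh, at 686, 657 and 643 CPM in controls and 542, 558 and 515 in knockdown (log2 fold change -0.30 ± 0.13, adjusted p = 0.0978). Limma-voom with quality weights called Phgdh lower (adjusted p = 0.0394).

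Psat1 footprints measured 950, 817 and 734 CPM in controls and 429, 451 and 379 in knockdown (log2 fold change -0.998 ± 0.13, adjusted p = 5.15e-07). Psph, the furthest of the serine enzymes down the path, went from 256, 186 and 244 CPM to 46.3, 58.2 and 55.3 (-2.13 ± 0.17, adjusted p = 2.78e-12). The Psph to Phgdh footprint ratio, 0.345 ± 0.0543 in controls and 0.0990 ± 0.0119 in knockdown (SD, n = 3), was lower in every knockdown library, as in RNA. Shmt2 footprints were 867, 745 and 696 CPM in controls and 383, 475 and 360 in knockdown (-0.94 ± 0.14, adjusted p = 2.35e-06). Mthfd2 had the smallest change among the footprints called, from 198, 152 and 198 CPM to 125, 108 and 96.2 (-0.70 ± 0.15, adjusted p = 0.00113). Aldh1l2 footprints rested on 13 to 229 counts and measured 101, 62.8 and 119 CPM in controls and 9.57, 42.1 and 13.3 in knockdown. They fell by 2.46 ± 0.50 (adjusted p = 0.0185), and the call was lost without knockdown 3 (adjusted p = 0.130) and in 1 fit over all 12 libraries (adjusted p = 0.0689).

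Asns footprints were 865, 712 and 775 CPM in controls and 278, 423 and 265 in knockdown (log2 fold change -1.31 ± 0.15, adjusted p = 3.36e-08). Cth footprints went from 305, 195 and 334 CPM to 78.6, 126 and 94.1 (-1.53 ± 0.19, adjusted p = 5.01e-06). Asns and Cth were again both highest, among knockdown libraries, in knockdown 2. For proline, Aldh18a1 measured 304, 218 and 296 CPM and then 124, 179 and 99.3 (-1.07 ± 0.17, adjusted p = 2.98e-05). Pycr1 measured 68.9, 64.2 and 45.1 CPM and then 22.7, 26.1 and 16.4 (-1.54 ± 0.22, adjusted p = 1.97e-06). The Pycr1 to Aldh18a1 footprint ratio overlapped between groups (exact permutation p = 0.3), unlike their RNA ratio.

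**Figure D2:**
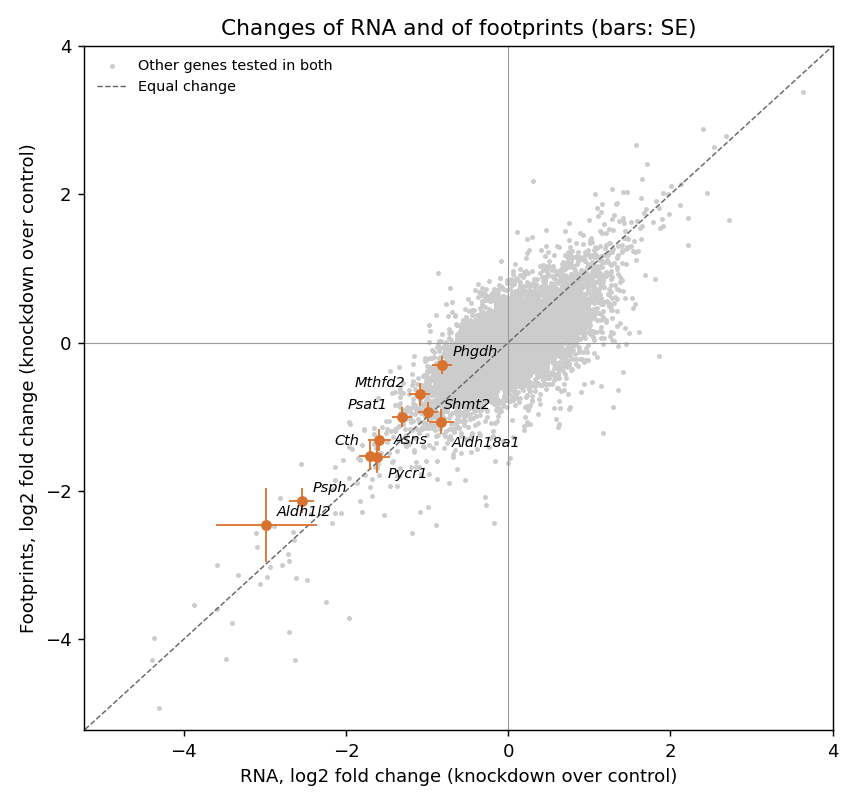
Log2 fold change (knockdown over control) of RNA on the horizontal axis and of footprints on the vertical axis for genes tested in both assays (grey) and for the 10 enzymes (orange, bars are SE); the dashed line marks equal change. The enzymes lie in the lower left, with Phgdh farthest above the line among the precisely measured members and Aldh18a1 below it.

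Translational efficiency, the footprint level relative to the RNA level, was tested as the assay by knockdown interaction in a joint fit of the 12 libraries. None of the 10 enzymes was called by edgeR's quasi-likelihood test, beside 0.0739% of 10821 genes called lower and 0.129% called higher. At an unadjusted p under 0.05 there were 2 of the 10, Phgdh and Mthfd2. The share of all genes at that unadjusted threshold is not given here, so this count has no background beside it. DESeq2 and limma-voom each called 1, Phgdh. The estimates were above 0 for 9 of 10, and Aldh18a1 was the exception (-0.23 ± 0.26). Their median was 0.31 on the log2 scale beside 0.02 over all genes, of which 48.2% had estimates below 0. The count of 9 became 7 without RNA control 1, RNA knockdown 3, footprint control 3 or footprint knockdown 2. Phgdh had a log2 difference of 0.53 ± 0.17 (adjusted p = 0.180; 0.0224 with DESeq2 and 0.0419 with limma-voom), and its estimated footprint level per RNA was 0.710 in controls and 1.03 in knockdown. Mthfd2 had 0.42 ± 0.20 (adjusted p = 0.405).

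In control cells the enzymes differed in footprints per RNA, a measure within each gene that gene length does not enter. Aldh1l2 had the most, 2.88 (log2 1.53 ± 0.52), higher than 91.8% of genes, followed by Aldh18a1 at 1.92 (log2 0.94 ± 0.17). Psat1 (0.63 ± 0.13), Shmt2 (0.61 ± 0.13), Pycr1 (0.49 ± 0.16) and Cth (0.38 ± 0.17) lay next in order, each within its SE or little more of its neighbour. Psph (0.01 ± 0.15) and Asns (-0.07 ± 0.14) sat near the middle of all genes. Phgdh (-0.49 ± 0.12) and Mthfd2 (-0.65 ± 0.14) were lowest, at the 31.8th and 26.3rd percentiles, and did not differ beyond their errors.

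**Figure D3:**
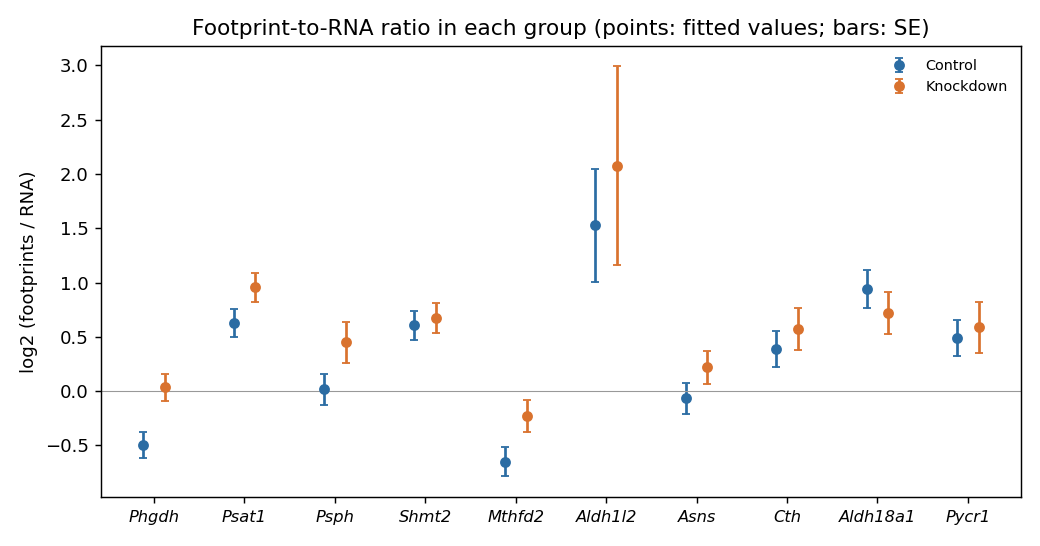
Footprints relative to RNA (log2, from the joint fit) for each enzyme in control and knockdown libraries; points are estimates from 3 libraries per assay and bars are SE. Knockdown estimates lie above control for 9 of 10 genes, none of them called by edgeR, with the widest bars in Aldh1l2.

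Paralogues of the members were measured in the same libraries, and some of them were called and others were not. Shmt1, the cytosolic counterpart of Shmt2, stood at 51.9 ± 10.01 CPM in control RNA and 48.0 ± 3.62 in knockdown (SD, n = 3; log2 fold change -0.12, adjusted p = 0.513). The Shmt2 to Shmt1 count ratio went from 8.78 ± 2.05 to 4.68 ± 0.640 without overlap (exact permutation p = 0.1). Mthfd1, the cytosolic folate enzyme, had RNA of 92.4 ± 6.58 and 102 ± 4.98 CPM (adjusted p = 0.317; its estimate of 0.14 became -0.03 with the trend with gene span removed). Mthfd1 footprints rose from 136 ± 21.6 to 197 ± 14.4 CPM (0.49 ± 0.14, adjusted p = 0.0143; 0.0616 without knockdown 3), and the Mthfd2 to Mthfd1 RNA ratio went from 2.69 ± 0.351 to 1.15 ± 0.168. Mthfd1l, a mitochondrial enzyme that releases formate, fell in RNA from 119 ± 8.29 to 73.1 ± 1.79 CPM (-0.70 ± 0.11, adjusted p = 7.41e-05) and in footprints (-0.44, adjusted p = 0.0322). The Mthfd1l footprint call was lost with DESeq2 (adjusted p = 0.0956) and without control 1 (0.143), knockdown 1 (0.260) or knockdown 3 (0.110). Mthfd2l, the mitochondrial relative of Mthfd2, was not called in RNA (0.27, adjusted p = 0.149) or footprints (0.17, adjusted p = 0.776, from 5 to 47 counts per library), so not all mitochondrial folate genes moved with the 3 members. Pycrl, a relative of Pycr1, fell in RNA (-0.55 ± 0.14, adjusted p = 0.00419) and was not called in footprints (adjusted p = 0.630). Aldh1l1, the cytosolic relative of Aldh1l2, had 0 to 7 counts per RNA library and was not tested.

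In the neighbouring pathways, some of the measured genes were called and others were not. Genes counted below as falling or rising are those called lower or higher. Over all genes tested, the shares called lower and higher were 21.7% and 22.0% in RNA and 7.38% and 8.76% in footprints. Among 13 other folate enzymes tested in RNA, 2 fell (Mthfd1l and Tyms, thymidylate synthase, -0.54 ± 0.12, adjusted p = 0.00154), 1 rose and 10 were not called, with a median of -0.16. In glycine cleavage, of 3 tested, Dld fell and Amt rose, the latter on 10 to 44 counts per library and not without knockdown 2 (adjusted p = 0.114). Of 10 other genes of methionine metabolism and transsulfuration, 3 fell and 1 rose (median -0.14), and Adi1, of methionine salvage, fell most clearly (-1.26 ± 0.11, adjusted p = 5.60e-07). Of 17 other enzymes of proline, glutamate and aspartate, 10 fell and 2 rose (median -0.45). Got1, which makes aspartate, the Asns substrate, fell from 71.5 ± 11.4 to 35.6 ± 1.59 CPM (-1.01 ± 0.13, adjusted p = 1.49e-05), and Ass1, which uses aspartate, fell (-0.74 ± 0.12, adjusted p = 0.000197). Glul, glutamine synthetase, rose from 1.35 ± 0.387 to 6.67 ± 1.89 CPM (2.31 ± 0.30, adjusted p = 2.07e-05). Among 8 branched-chain and serine-consuming enzymes 5 fell and none rose (median -0.61), Bcat2 (-0.88 ± 0.13), Bckdha (-0.96 ± 0.15) and Bcat1 (-1.01 ± 0.16) among them. In footprints, counts called lower and higher were 1 and 1 of 11 folate enzymes, 1 and 0 of 9 for methionine, 5 and 2 of 15 for proline, glutamate and aspartate, and 3 and 0 of 7 for branched-chain enzymes.

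**Figure D4:**
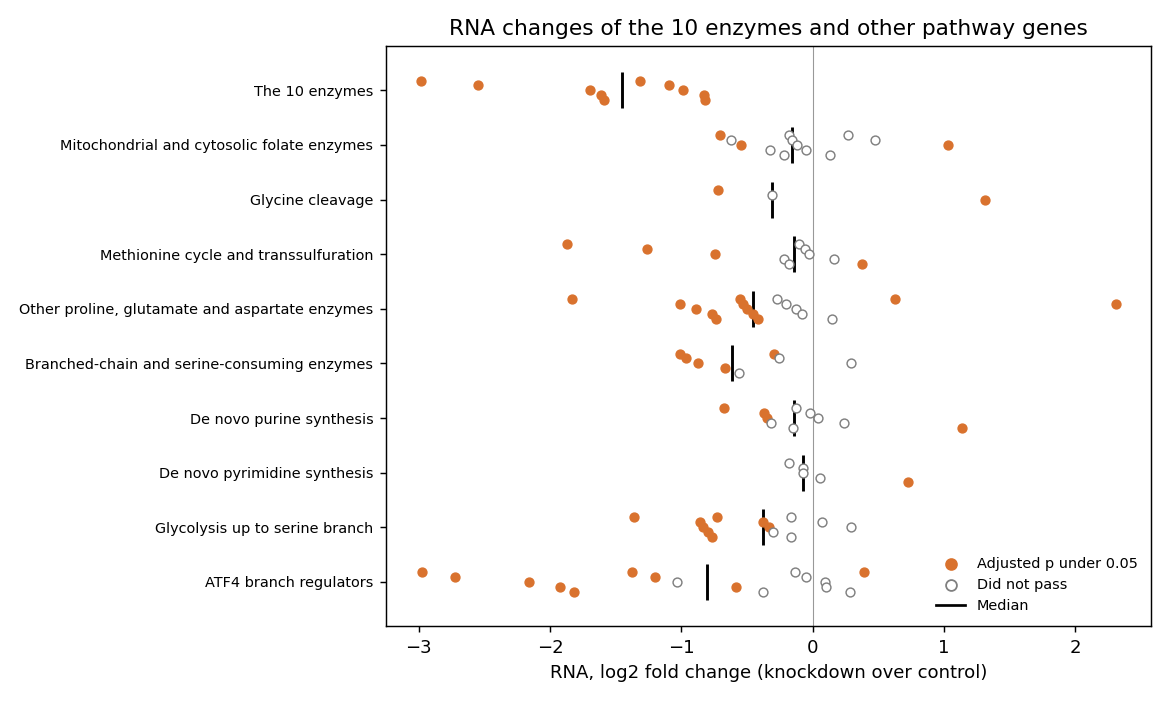
Log2 fold change of RNA for the 10 enzymes (top row) and for the tested genes of each pathway list; filled points passed an adjusted p under 0.05 and the black bar is the list's median. All 10 enzymes are filled and to the left of 0, while each other list holds genes that were not called.

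Of 16 regulators and targets of the ATF4 branch, 8 fell, 1 rose and 7 were not called in RNA (median -0.81). In footprints 7 of 15 were called lower. The shares of all genes were 21.7% lower and 22.0% higher in RNA, and 7.38% lower in footprints. Eif2ak4 was the 1 that rose (0.39, adjusted p = 0.0115), and Atf3 was among those not called (0.10, adjusted p = 0.755). Atf4 RNA went from 1332 ± 115 to 891 ± 38.6 CPM (-0.58 ± 0.12, adjusted p = 0.00130), and Atf4 footprints over its coding sequence from 390, 277 and 463 CPM to 142, 175 and 157 CPM (-1.26 ± 0.16, adjusted p = 2.86e-07). The difference between those changes, -0.66 on the log2 scale, was not called (adjusted p = 0.172). Trib3, a pseudokinase and ATF4 target, fell in RNA (-2.97 ± 0.69, adjusted p = 0.0280), as did Ddit3, a stress transcription factor (-1.82 ± 0.46, adjusted p = 0.0298), Atf5 (-1.37 ± 0.12), Cebpb (-1.20 ± 0.16) and Chac1 (-2.16 ± 0.24). The Trib3 and Ddit3 calls were lost without control 3 (adjusted p = 0.0675 and 0.102), without knockdown 1 (0.0944 and 0.0737) or without knockdown 3 (0.0643 and 0.0785). The Ddit3 call was also lost with no filter (adjusted p = 0.0522) and with the trend with gene span removed (0.0525).

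Within groups, the order of the libraries was much the same from enzyme to enzyme. In RNA, control 1 was the highest control for 9 of 10 enzymes and control 2 the lowest for 9 of 10, while knockdown 2 was the highest knockdown library for 9 of 10, and Phgdh was the exception each time except that Aldh1l2 was highest in control 3. Trib3 RNA had the same low control 2 and high knockdown 2 (204, 81.0 and 167 CPM in controls, 12.7, 35.3 and 10.4 in knockdown). Atf4 RNA did not have this order. It was highest in control 2 among controls (1303, 1459 and 1234 CPM) and in knockdown 3 among knockdown libraries (847, 905 and 921 CPM). In footprints, control 1 was highest for 8 and knockdown 2 for 9 of 10, the exception in knockdown being Mthfd2. Footprint knockdown 2 was also the shallowest library, and the part of depth in this order was not tested. The deviation of each enzyme from its group mean over the 6 RNA libraries had a Pearson r of 0.182 for Phgdh and 0.794 (Shmt2) to 0.993 (Mthfd2) for the others with the mean of the members, given as a description, since the enzyme is part of that mean and all share the libraries.

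**Figure D5:**
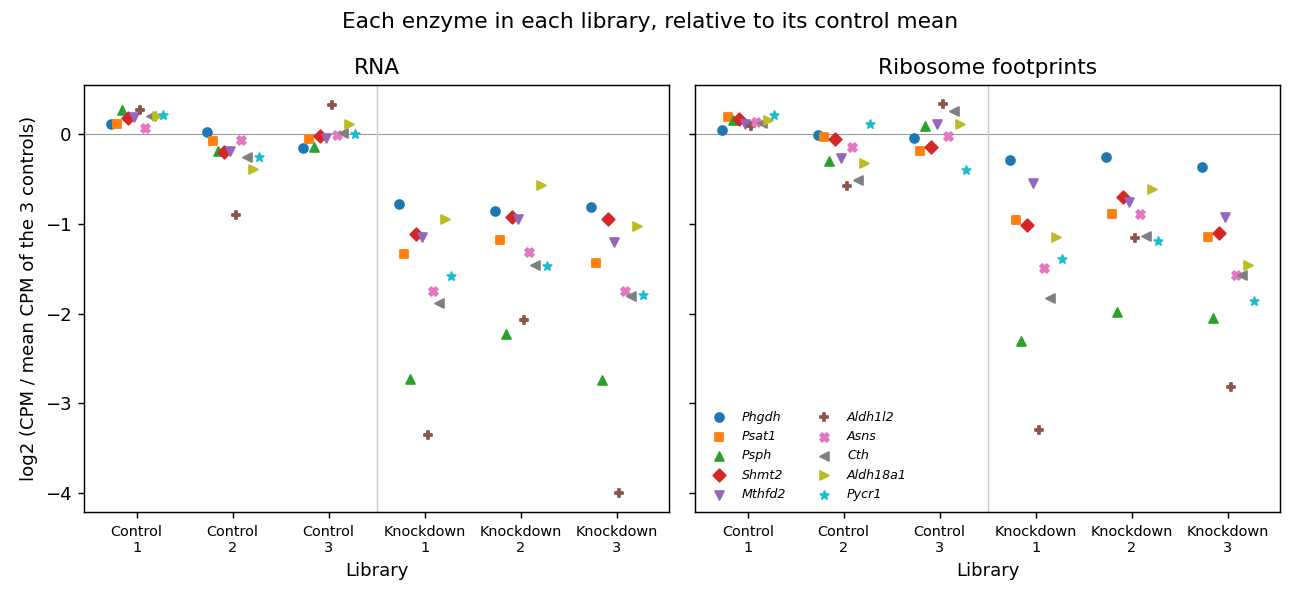
Each enzyme in each library as log2 of its CPM over the mean of the 3 controls, for RNA (left) and footprints (right); symbols are genes and columns are libraries. Control 2 sits low among RNA controls and knockdown 2 high among knockdown libraries for nearly all genes, with Aldh1l2 spread most.

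Over the 6 RNA libraries, the 5 genes outside the list with the pattern most like the members' mean, out of 8164 genes averaging log2 CPM 3 or more, were Sars (r = 0.998), Nrg2, Htatip2, Hk1 and Pyroxd1 (each 0.997). Sars, the seryl-tRNA synthetase, fell by 1.51 (adjusted p = 6.71e-07) and Htatip2 by 1.40 (adjusted p = 6.71e-07). Such an r includes the gap between the groups and is given without a p. Over deviations from group means, the highest were Zfand5 (r = 0.999), Mllt3 (0.993), and Snapin, Smek1 and Tsc22d3 (each 0.992). Only Smek1, which was higher, and Tsc22d3, which was lower, were called between the groups (adjusted p = 0.0154 and 0.000108). Over the 6 libraries themselves, r was -0.305 for Mllt3 and -0.881 for Smek1. It was 0.733 for Zfand5, 0.886 for Snapin and 0.987 for Tsc22d3. These 5 are the top of a ranking of 8164 genes over 6 libraries, so their r is a description and is also given without a p.

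Of the 10 enzymes, 1, Psat1, had a region in the authors' list of Msi2 binding in 3' UTRs, beside 10.3% of all genes tested in RNA (14.2% of those expressed at least as highly as the lowest member). The Psat1 region is chr19:15905712-15905828 on the minus strand (mm10, 117 bases, summit 15905748), within the gene's span of 15905123 to 15925059. Its height over the 5 libraries was 11, where the list starts at 10 and has a median of 16 over 2671 regions, and 10.1% of regions were lower. Its reads were 0 in the library with undiluted RNase, 1 and 2 in those at 1 in 20, 5 at 1 in 50 and 3 at 1 in 75. Atf4 had a region at chr15:80257311-80257541 on the plus strand, with a height of 28 and 1, 3, 5, 12 and 7 reads in the same order. No other member had a region within its span in the list of all regions either. Psat1 RNA fell by 1.31 and its footprints by 0.998, inside the range of the 9 enzymes without a region.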

How the data were processed

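RNA and footprints were deposited as counts of reads in each gene's coding sequence. The submitters' processing notes name TopHat, HTSeq, DESeq and mm10, without versions. For CLIP, the authors deposited lists of regions with a signal (peak height summed across the 5 libraries) and reads by library. The notes name cutadapt and Novoalign for CLIP, and the peak caller is not given in the sources used here. In the RNA table, reads of no gene (32.3 to 35.2% of a library), ambiguous reads (0.175 to 0.228%) and reads aligned to several places (13.4 to 24.5%) stayed out of library sizes and tests.

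Tests used edgeR 4.0.16 in R 4.3.3. Genes passed filterByExpr (minimum count 10, minimum total 15), libraries were scaled by TMM, and the robust quasi-likelihood test was followed by Benjamini-Hochberg adjustment over every gene tested, at a threshold of 0.05. Each assay had its own fit of the groups, and translational efficiency was the interaction term of a joint fit. Fold changes are knockdown over control on the log2 scale with the SE of the fit. Ratios of counts between 2 genes were compared with exact permutation tests of the log2 ratios.

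The 10 enzymes and the pathway lists were chosen with earlier results of these data known, and lists are described by counts and medians. Named genes are the enzymes, Msi2, up to 3 called genes per list with the smallest RNA p, paralogues, Atf4, Ddit3, Trib3, markers, and the 5 genes most like the enzymes by each measure. Gcsh was named after its values were seen. A few genes under this rule are left unreported. Alternatives were DESeq2 1.42.0, upper-quartile factors, limma-voom (limma 3.58.1) with quality weights, no filter, 10 CPM in 3 libraries, a replicate block, 1 joint fit of the 12 libraries, stricter or wider peak sets, and leaving out single libraries. A loess correction (span 0.5) for genomic span in each library was chosen after seeing the data. Gene positions, overlaps and promoters are from RefSeq tables of GRCm38.p6. Tests were checked on simulated data. No whole genome sequence or coding-sequence length was used here, so levels are not compared between genes.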

Additional observations from a re-analysis of the deposited data

Results flagged for a closer look

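Gcsh, the lipoyl carrier of glycine cleavage, was the only gene of the metabolic lists whose change differed between footprints and RNA by the test of that difference (0.988 ± 0.214 on the log2 scale, knockdown minus control, adjusted p = 0.0382), which is why it stands here. Its RNA was 79.3, 95.3 and 72.0 CPM in controls and 69.0, 58.2 and 72.3 in knockdown, with overlap (log2 fold change -0.31, adjusted p = 0.0562). Its footprints were 61.9, 49.4 and 45.1 CPM in controls and 88.6, 78.2 and 82.9 in knockdown, without overlap (0.66 ± 0.17, adjusted p = 0.00573; 0.0643 without knockdown 1). The call on the difference was lost with upper-quartile factors (adjusted p = 0.0534), with a filter of 10 CPM in 3 libraries (0.0744) and without any one of 10 of the 12 libraries (adjusted p from 0.0547 to 0.233).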

How the results depend on the processing

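Of the 10 enzymes, 9 were called lower in RNA under all 14 alternatives and Aldh1l2 under 11. In footprints 8 were called under all 14, Aldh1l2 under 11, and Phgdh only with limma-voom. The RNA count of called genes, 4866, was 3548 to 5486 with 1 library left out. The footprint count, 1448, was 854 with DESeq2 and 842 (without knockdown 1) to 1634, with 907 without control 1 and 849 without knockdown 3. For translational efficiency 22 genes were called, against 98 with DESeq2, 86 with limma-voom, 124 with no filter and 14 with 10 CPM in 3 libraries, and 0 (without RNA knockdown 3 or footprint control 1) to 243 (without RNA control 3) with 1 library left out. The number of enzymes with a 3' UTR region was 0 at a height of 20 or more and 0 with reads in all 5 libraries required. The cause was not tested, except that stricter peak sets hold fewer regions.

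Some estimates changed sign, none of them called. The largest of them was the Aldh1l2 efficiency, 0.55 ± 1.00 in the main fit. It became -0.0070 without RNA knockdown 3 and -0.0178 without footprint knockdown 2. With the span trend removed, RNA was -0.0312 for Mthfd1. Shmt1 footprints were 0.0253 with limma-voom, 0.0209 with the span trend removed, 0.0029 in the joint fit, and -0.0542 to 0.0486 over all 14 alternatives. The same ranges were -0.0759 to 0.514 for Mthfd2l footprints and -0.0327 to 0.0917 for Adsl footprints. In translational efficiency the ranges over all 18 alternatives were -0.0205 to 0.350 for Cth, -0.103 to 0.163 for Shmt2, -0.0178 to 1.21 for Aldh1l2 and -0.0998 to 0.243 for Pycr1. Shmt2 was -0.0271 with 10 CPM in 3 libraries.

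Same-numbered control and knockdown libraries share only a number in the labels, so the numbers were not taken as pairs. The deviations of same-numbered libraries correlated at 0.0998, -0.347 and -0.302 in RNA and 0.0497, 0.0289 and -0.00281 in footprints. With 3 libraries per group, these correlations cannot settle whether the numbers pair samples. With the replicate block, 3982 genes were called in RNA and 1519 in footprints, Aldh1l2 lost its calls in RNA (adjusted p = 0.0735) and footprints (adjusted p = 0.0664), efficiency calls numbered 8, and the Shmt2 efficiency was -0.0029. The block also ended the calls on Trib3 RNA (adjusted p = 0.142), Ddit3 RNA (0.108) and the Gcsh efficiency (0.158). Libraries correlated best with their own number in 1 of 3 pairs in RNA and 2 of 3 in footprints. Depth limits the footprints of Aldh1l2, Pycr1, Mthfd2l and Msi2, each with 13 or fewer counts in a library.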

Other observations

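Glycolysis, which feeds the serine branch, fell in part: 8 of 13 tested enzymes were called lower in RNA and none higher (median log2 fold change -0.38), beside 21.7% and 22.0% of all genes tested. Pfkp, a phosphofructokinase, fell from 107 to 41.8 CPM (-1.36 ± 0.13, adjusted p = 9.90e-07). Aldoa, aldolase, fell by 0.85 and Pgk1, the kinase that makes the substrate of the serine branch, by 0.84. In footprints, 5 of 12 were called lower and none higher, beside 7.38% and 8.76% of all genes. Purine synthesis, which takes up folate carbon, had 3 of 10 enzymes called lower in RNA, a share near that of all genes. Adss (-0.67) and Adsl (-0.35) were among them, and the Adsl call was lost without knockdown 2 (adjusted p = 0.0584) or knockdown 3 (0.0530). Pfas was called higher (24.2 to 53.2 CPM, 1.14 ± 0.13, adjusted p = 5.58e-06), also higher in footprints (0.52 ± 0.14, adjusted p = 0.00866), a footprint call that was lost without control 1 (adjusted p = 0.0630) or knockdown 3 (0.114). Of 5 pyrimidine genes 1 was called, Cad, the first enzyme of the path, which rose in RNA (0.72 ± 0.12, adjusted p = 0.000117) and in footprints (0.75 ± 0.13, adjusted p = 5.95e-05).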
